A study of Mus musculus with 10 samples.

Results

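The genes described here encode the protein parts of the cytosolic ribosome and the initiation, elongation and termination factors that work with it. They were chosen by symbol. A probe was taken where the platform annotation gave it a single gene symbol that starts with Rpl, Rplp, Rps, Eif or Eef as named for these proteins (S6 kinases left out), or that is Rpsa, Pabpc1, Etf1 or Gspt1. This gave 130 probes for 116 genes, out of 13840 genes named by the 33012 probes of the table, and the probe with the highest mean log2 intensity stood for each gene. The 116 members were 36 large subunit proteins, 19 small subunit proteins, 6 ribosomal protein paralogs, 34 initiation factor genes, 7 eIF2 kinases and eIF4E-binding proteins, 10 elongation genes, 3 termination and poly(A) binding genes, and Rps19bp1, which falls in none of these groups. The elongation genes include eEF2 kinase (Eef2k) and the eEF1A methyltransferases Eef1akmt1, Eef1akmt2 and Eef1aknmt, which are not elongation factors themselves.

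Messenger RNA was measured on 10 single-channel Applied Biosystems arrays. Of these, 5 were hybridised with RNA of adult mouse retina from 1 pool of 350 C57/B6 mice, and 5 with RNA of cortex from 1 pool of 19 mice at postnatal day 1. The strain of the cortex mice is C57/B6 in the sample descriptions and Swiss-Webster in the series text, and this was not settled. No treatment or engineered allele was named for either group. The 5 arrays of a tissue are repeats from the same pool, so the p-values measure only the spread between arrays and not between animals. Tissue, age and possibly strain cannot be told apart in this design.

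Translation starts when the small ribosomal subunit, carrying eIF1, eIF1A, eIF3, eIF5 and the ternary complex of eIF2, GTP and initiator tRNA, is brought to the capped end of a messenger by the eIF4 complex and scans to a start codon. The large subunit then joins, eEF1A delivers aminoacyl-tRNAs, eEF2 moves the ribosome along, and the release factors eRF1 and eRF3 end the chain. The main brakes act on the first and middle steps: kinases that phosphorylate eIF2, the 4E-binding proteins that hold eIF4E when mTOR is inactive, and eEF2 kinase. Many messengers of ribosomal proteins and elongation factors begin with a 5′ terminal oligopyrimidine tract, an unbroken stretch of C and T at the start of transcription through which mTOR controls their translation.

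Annotated start sites were searched for runs of this kind. RefSeq promoter sequences of assembly GRCm38.p6 were matched by Entrez gene ID for 94 of the 116 members. An unbroken run of at least 8 C or T on the gene's strand was sought that touched the 10 bases on either side of the annotated start. Such a run was present at 39 of 117 member starts (33.3%) and at 23 of 54 ribosomal protein starts (42.6%), against 13.7% of the 32851 starts in the whole table. Most member starts did not have one. A run within this reach need not lie in the messenger, so it is not the tract itself. Below are the 30 bases around the start (15 before it and 15 from it), 5′ to 3′ on the gene's strand, with the run in capitals. Shown first are 6 members that have the run, chosen because they span both subunits and the elongation factors. Then follow 4 of the members with wide gaps between the tissues, of which Eif3l has a run and the others do not.
Rps6: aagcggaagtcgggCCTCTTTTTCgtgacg
Rps18: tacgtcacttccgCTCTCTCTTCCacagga
Rpl28: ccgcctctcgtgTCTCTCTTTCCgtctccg
Rpl35: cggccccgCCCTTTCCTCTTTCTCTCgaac
Rplp2: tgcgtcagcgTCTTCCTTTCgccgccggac
Eef1a1: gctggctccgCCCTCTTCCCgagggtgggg
Eif3l: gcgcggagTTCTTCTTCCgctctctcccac
Rplp0: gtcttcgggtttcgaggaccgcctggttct
Eef1b2: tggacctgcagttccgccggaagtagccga
Eef2k: tgcgccccgtgcgtcagtcccgccccagcc
These windows lie at chr4:86857353-86857382 (minus strand, Rps6), chr17:33955651-33955680 (minus, Rps18), chr7:4792950-4792979 (plus, Rpl28), chr2:39005117-39005146 (minus, Rpl35), chr7:141447636-141447665 (plus, Rplp2), chr9:78481710-78481739 (minus, Eef1a1), chr15:79075208-79075237 (plus, Eif3l), chr5:115559452-115559481 (plus, Rplp0), chr1:63176816-63176845 (plus, Eef1b2) and chr7:120842816-120842845 (plus, Eef2k). Each covers the end of the promoter and the first bases of the first exon. Ribosomal protein genes with a run at any start had a median difference between the tissues of -0.25 on the log2 scale (22 genes), and those without one of -0.28 (23 genes). Of the 6 members at least 2-fold apart between the tissues, 5 had a promoter entry and 0 of these had a run at any annotated start (Eef2k has 3, of which 1 is shown). Just under 2-fold, Eif3l (difference -0.99) and Rps26 (-0.88) did have one. Eif4a1 (-0.99), Eif4ebp2 (-0.97), Rpl10 (-0.96), Eif2s2 (-0.93) and Rps13 (-0.86), of like size, had none. A match describes the letters of the annotated start only, and a missing match says nothing about the messenger's own first base.

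As deposited, the median intensity of an array was 836 to 987 for retina and 1255 to 1341 for cortex, so the arrays were quantile normalized before the log2 values below were compared. The labelled tissues were borne out by their markers: 5 of 5 retina markers were at least 2-fold higher in retina and 5 of 5 cortex markers lower. Dividing cell markers were lower in retina for 6 of 10, with summed intensities of 79954 to 92606 in retina and 177571 to 191787 in cortex. Pcna, the brightest of the 10 (16.21 in retina, 16.44 in cortex), weighs most in these sums and differed by only -0.23. The 6 lower markers differed by -1.85 (Mcm5) to -5.78 (Rrm2). Red blood cell markers were lower for 2 of 3 (33403 to 40613 against 124112 to 161404), pituitary markers for 3 of 5 (4197 to 5953 against 49220 to 54682) and meningeal markers for 6 of 6 (11755 to 14128 against 129624 to 136593). Lens markers were higher for 3 of 5 (80739 to 96969 against 2404 to 3411). These values stand beside every difference below, and their part in any of them was not tested. In such bulk RNA, fewer cells of a type and less RNA per cell cannot be told apart.

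The messengers of the translation machinery differed little between adult retina and newborn cortex, and most of the differences that passed the test were lower in retina. Of the 116 members, 1 was at least 2-fold higher in retina with a limma adjusted p under 0.05 (Benjamini-Hochberg over all 33012 probes) and 5 were lower, against 25.4% of all probes (12.1% higher and 13.3% lower). At least 2-fold apart, with or without the test, were 5.17% of members, 26.2% of all probes and 22.7% of the 768 other probes as bright as ribosomal proteins. Without a fold minimum, 20 members were higher, 65 lower and 31 did not pass. By the same test 47.6% of all probes passed (22.5% higher and 25.0% lower), as did 82.2% of the equally bright probes (30.7% higher and 51.4% lower; by 2-fold and the test, 11.3% each way). The median difference was -0.22 (quartiles -0.57 and 0.08) for members, -0.0052 for all probes and -0.17 for the equally bright probes. The lower median therefore lay close to that of other bright probes. The spread of the differences was narrower. Its SD was 0.54 for members and 0.42 for the 55 ribosomal proteins, against 1.02 for the equally bright probes and 1.29 for all probes. The equally bright probes were chosen to match the ribosomal proteins and not all members. All 768 were in the brightest 5% of the array, beside 52 of the 55 ribosomal proteins and only 71 of the 116 members.

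**Figure D1:**
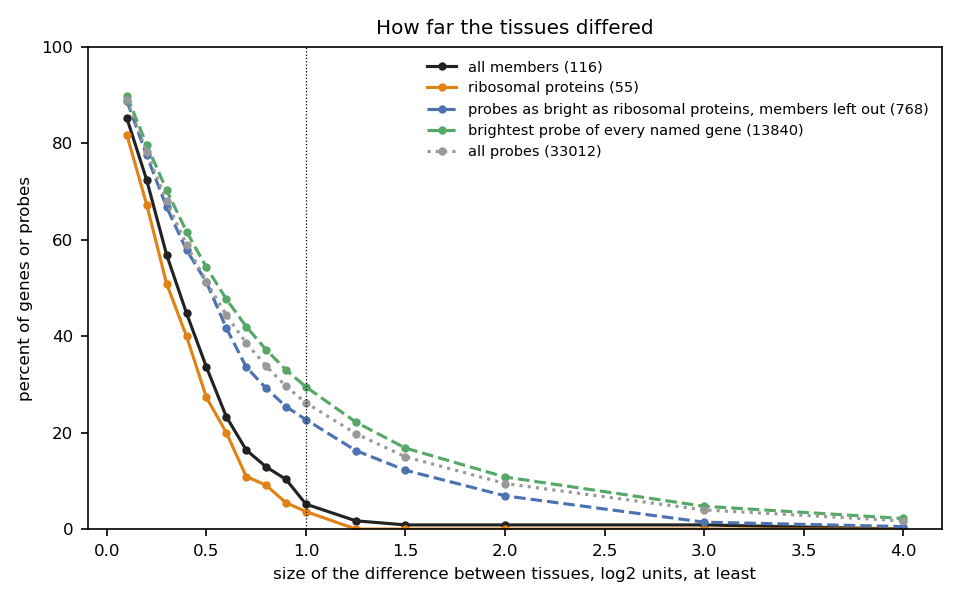
Percent of genes or probes (vertical axis) whose retina and cortex means differ by at least the log2 size on the horizontal axis, for members, ribosomal proteins, equally bright probes, named genes and all probes. At sizes of 0.5, 1 and 2 the shares are 33.6%, 5.17% and 0.862% for the 116 members, and 51.2%, 22.7% and 6.9% for other probes as bright as ribosomal proteins.

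The repeats were close: the median SD over 5 arrays was 0.10 log2 in retina and 0.07 in cortex for members, against 0.33 and 0.28 for all probes. Differences well short of 2-fold could thus pass the test. In 76 of the 116 members the values of the tissues did not overlap, against 40.5% of all probes and 74.5% of the equally bright ones. As a share of all deposited signal on an array, the members' probes made up 4.99% ± 0.10 (SD, n = 5) in retina and 6.13% ± 0.05 in cortex, and the 55 ribosomal proteins 3.96% ± 0.09 and 4.97% ± 0.03. These shares are a description and were not tested.

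**Figure D2:**
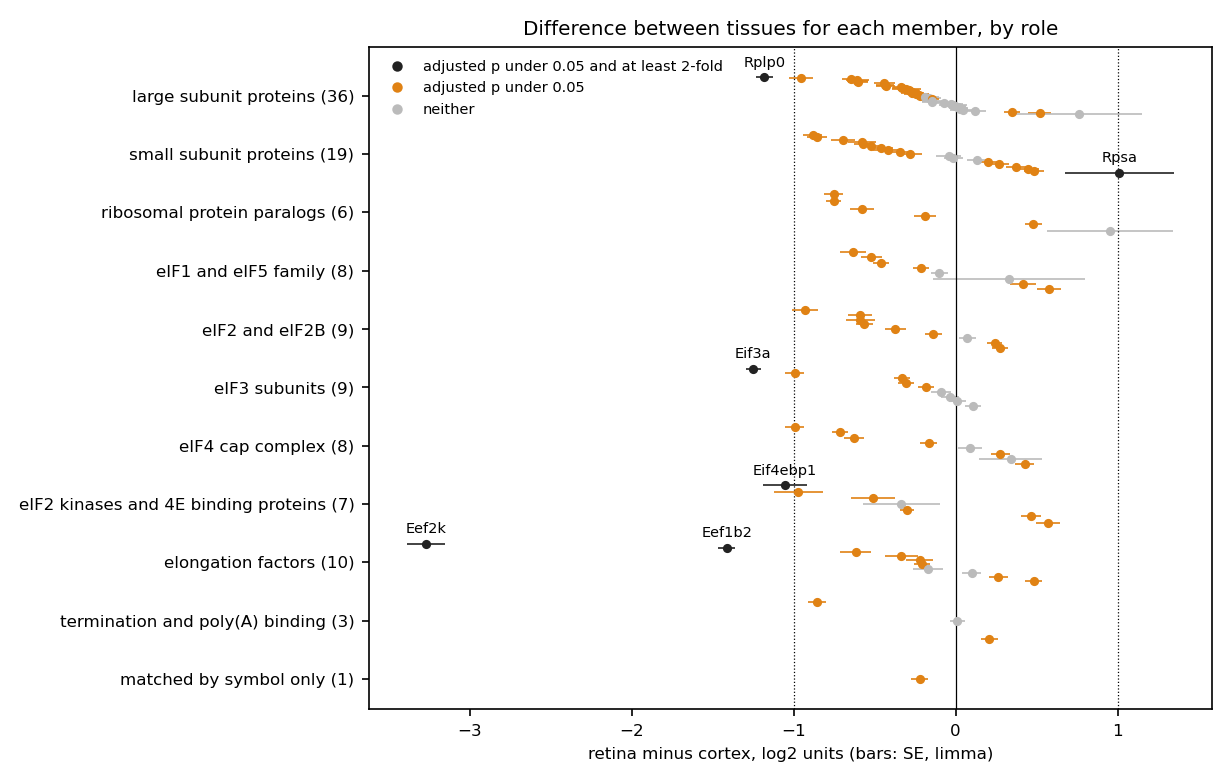
Difference between retina and cortex in mean log2 intensity (5 arrays each) for every member, arranged by role, with the SE of each difference as a bar. Most points lie between -1 and 1, and Eef2k stands at -3.27.

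Among the 55 ribosomal proteins, the signals were high in both tissues, and the proteins of one particle did not all lie on the same side. The probes of 39 of the 55 were among the brightest 1% of the array, and whether such spots were saturated is not given in the sources used here. In retina 8 were higher, 30 lower and 17 did not pass (adjusted p alone), with a median of -0.23 (quartiles -0.44 and 0.02). Of the equally bright probes, 30.7% were higher and 51.4% lower by the same test. In 36 of the 55 the tissues did not overlap, against 74.5% of the equally bright probes and 40.5% of all probes. Ribosomal protein genes have many near-identical processed pseudogenes, so a probe's signal may include other copies, and each value is uncertain in that respect.

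The large subunit joins late in initiation and carries the centre that forms peptide bonds. Of its 36 proteins, 2 were higher in retina, 20 lower and 14 did not pass, beside 30.7% higher and 51.4% lower of the equally bright probes. The median was -0.22 and the range from -1.18 to 0.76. The upper end is Rpl37, whose probe was dim in both tissues and did not pass (limma adjusted p 0.128). Rplp0, the base of the stalk that recruits elongation factors, gave 17.15, 17.07, 16.94, 17.09 and 17.08 on the retina arrays and 18.30, 18.28, 18.31, 18.17 and 18.19 on the cortex arrays. All retina values lay below all cortex values. The difference was -1.18 (SE 0.05, 2.27-fold, limma adjusted p 4.17e-12). A second Rplp0 probe gave a difference of -2.02. Rpl10, which sits near the peptidyl transferase centre and is among the last proteins to be added, was next: its retina arrays read 17.79, 17.98, 18.28, 18.04 and 18.05 and its cortex arrays 18.98, 19.00, 18.89, 19.02 and 19.04. The groups lay apart, with a difference of -0.96. Rpl36a (-0.65), Rpl12 (-0.61), Rpl39 (-0.61) and Rpl32 (-0.60) were also lower.

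Rpl9, a protein near the base of the stalk, was higher in retina. Its retina values were 19.91, 19.77, 19.77, 20.03 and 20.00, and its cortex values 19.39, 19.30, 19.35, 19.40 and 19.44. No retina array was as low as any cortex array after normalization, and the difference was 0.52 (limma adjusted p 6.67e-06). Rpl10a, the other higher one, differed by 0.35. Both turned sign without normalization, to -0.078 for Rpl9 and -0.17 for Rpl10a. Rpl26 (-0.0038), Rpl3 (0.04) and Rpl7 (0.12) did not pass the test.

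The small subunit, which binds and scans the messenger, had members on both sides. Of 19 proteins 6 were higher in retina, 10 lower and 3 did not pass, with a median of -0.28. Of the equally bright probes 30.7% were higher and 51.4% lower, so the split is not read as particular to the small subunit. Rps26, which lines the messenger's exit channel, read 18.24, 18.13, 17.99, 18.26 and 18.18 in retina and 19.07, 19.00, 19.05, 19.06 and 19.03 in cortex. The groups did not overlap and the difference was -0.88. Rps13 read 17.09, 17.29, 17.41, 17.37 and 17.29 in retina and 18.11, 18.08, 18.09, 18.19 and 18.26 in cortex, a difference of -0.86. Rps12 (-0.69), Rps18 (-0.58) and Rps19 (-0.57), a protein needed for small subunit maturation, were lower as well.

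Higher in retina were Rps15 (0.48), Rps29 (0.45), Rps14 (0.37), Rps6 (0.27) and Rps27 (0.20), all of which turned sign without normalization (-0.16, -0.18, -0.25, -0.35 and -0.43). On that scale Rps14, Rps6 and Rps27 passed the test as lower, and Rps15 and Rps29 did not pass. With array medians set equal, Rps27 missed the test (0.10). Rps15 read 19.12, 19.00, 18.79, 18.93 and 18.92 in retina and 18.53, 18.44, 18.52, 18.41 and 18.44 in cortex, with no overlap after normalization. Rps6, the substrate of the S6 kinases, is the member whose start sequence with its run is printed first above. Rpsa, a small subunit protein also known as a laminin receptor, was the only member at least 2-fold higher in retina with an adjusted p under 0.05. Its probe read 8.38, 9.21, 9.71, 8.55 and 8.39 in retina and 7.69, 7.58, 7.81, 8.07 and 8.05 in cortex (difference 1.01, SE 0.34, limma adjusted p 0.0198). The groups did not overlap, but in both tissues the probe was below 10.74, the 95th percentile of 747 olfactory receptor probes, which served here as a mark of dim signal. The call was lost without cortex replicate 1 (0.97), cortex replicate 2 (0.94), retina replicate 2 (0.92) or retina replicate 3 (0.80).

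**Figure D3:**
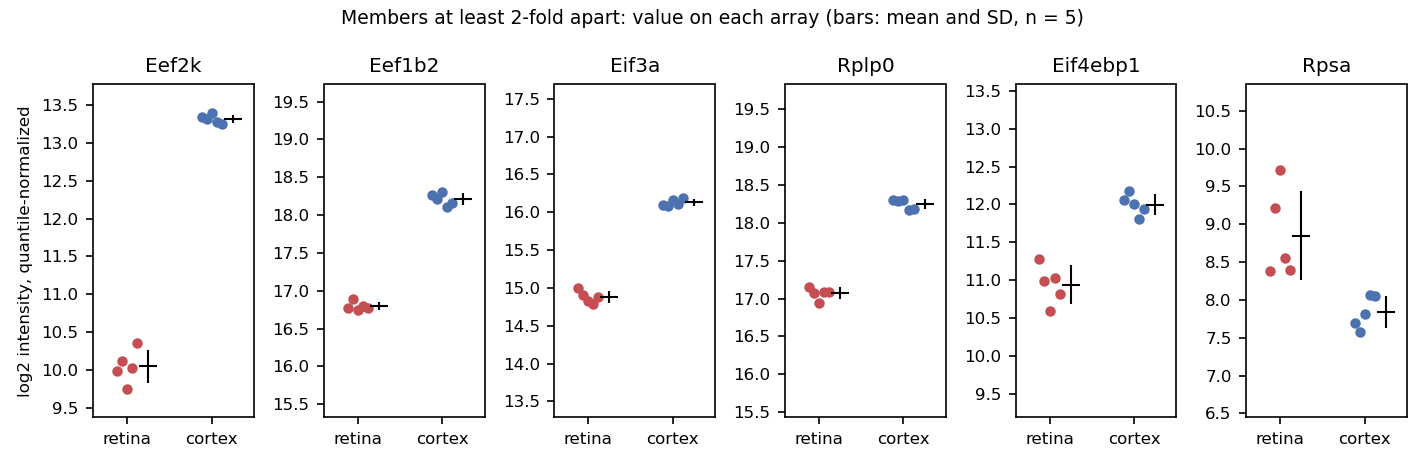
Normalized log2 intensity on each of the 5 retina and 5 cortex arrays for the 6 members that passed a 2-fold difference and adjusted p under 0.05. For each gene the tissues are separate, with Rpsa under the olfactory receptor mark of 10.74 in both and Eef2k under it in retina only.

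Paralogs of ribosomal proteins, each able to replace its relative in the ribosome or named for its resemblance to it, were spread to both sides. Of 6, 1 was higher, 4 were lower and 1 did not pass. Rpl36al differed by -0.75, Rps27l by -0.75, Rpl22l1 by -0.58 and Rpl39l by -0.19, which came to -0.034 with array medians set equal and -0.097 with cyclic loess, passing on neither, and no longer passed without cortex replicate 1 (-0.17) or 3 (-0.14) or retina replicate 2 (-0.19), 3 (-0.16) or 5 (-0.18). Rps27l read 14.74, 14.67, 14.79, 14.69 and 14.72 in retina and 15.47, 15.42, 15.48, 15.59 and 15.42 in cortex, so the tissues lay apart. Rpl7l1, a nucleolar relative of Rpl7, was higher by 0.48, and by 0.09, short of the test, without normalization. Rpl3l, the striated muscle form of Rpl3, differed by 0.96 with a limma adjusted p of 0.055 and was dim in both tissues. Some alternatives took it just past the test, as with array medians set equal (1.03, limma adjusted p 0.0427).

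Initiation factors were divided, and lower values in retina outnumbered higher ones. Of 34, 6 were higher, 19 lower and 9 did not pass, with a median of -0.17 and a range from -1.25 to 0.58. By adjusted p alone 22.5% of all probes were higher and 25.0% lower. These shares also stand beside the counts of each smaller group of factors below. The eIF3 complex, a scaffold on the small subunit, showed its members at different values. Its largest subunit, Eif3a, read 15.00, 14.91, 14.82, 14.78 and 14.88 in retina and 16.10, 16.09, 16.17, 16.10 and 16.19 in cortex. The groups were far apart, with a difference of -1.25 (SE 0.05, 2.38-fold, limma adjusted p 7.3e-13), and a second probe gave -1.16. Eif3l followed, with 15.90, 15.90, 15.68, 15.79 and 15.70 in retina and 16.86, 16.73, 16.90, 16.67 and 16.77 in cortex, a difference of -0.99. Of the 9 measured eIF3 subunits, 5 were lower, 0 were higher and 4 did not pass. Those 4 were Eif3f (0.11), Eif3h (0.01), Eif3k (-0.04) and Eif3i (-0.09). Eif3f passed as higher with array medians set equal (0.21, limma adjusted p 0.00696) and with cyclic loess (0.24, limma adjusted p 0.000605). Without normalization all 4 passed as lower: Eif3f (-0.33), Eif3h (-0.49), Eif3i (-0.59) and Eif3k (-0.44).

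The eIF4 genes were also divided, with 2 higher, 4 lower and 2 not passing of 8. They were grouped by name, and not all of them, such as Eif4a3, bind or unwind the capped end. Eif4a1, the RNA helicase of the complex, read 17.31, 17.20, 17.09, 17.28 and 17.34 in retina and 18.35, 18.23, 18.26, 18.13 and 18.24 in cortex. No values overlapped, and the difference was -0.99 (SE 0.06, limma adjusted p 1.66e-10), just under 2-fold. The cap-binding protein Eif4e was lower by a difference of -0.71 and Eif4g2, a scaffold relative without a binding site for eIF4E, by -0.63. The helicase cofactors Eif4h (0.43) and Eif4b (0.28) were higher. Both turned sign without normalization, to -0.21 for Eif4h, which passed as lower there, and -0.11 for Eif4b, which did not.

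Genes of eIF2, which brings the initiator tRNA, and of its exchange factor eIF2B did not lie on one side. Of 7 subunits, 2 were higher, 4 lower and 1 did not pass, with a median of -0.14. Eif2a (-0.56) and Eif2d (-0.59), single-chain factors that share the name but belong to neither complex, were both lower. Eif2s2, the beta subunit, read 12.86, 13.20, 13.36, 13.21 and 13.24 in retina and 14.03, 14.08, 14.03, 14.21 and 14.18 in cortex, a difference of -0.93 with no overlap. The X-linked and Y-linked gamma subunit genes differed by -0.37 (Eif2s3x) and -0.59 (Eif2s3y). The exchange factor subunits Eif2b4 (0.27) and Eif2b2 (0.24) were higher, but turned to -0.11 and -0.15 without normalization. Eif2b5 (0.07) did not pass. It passed as higher with array medians set equal (0.23, limma adjusted p 0.00377) and with cyclic loess (0.14, limma adjusted p 0.0385), and as lower without normalization (-0.30). Eif2b1, counted as lower, differed by -0.14 and lost its call with cyclic loess (-0.063), and without any of cortex replicates 1, 2 and 3 or retina replicates 1, 2, 3 and 5 (from -0.15 to -0.11).

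In the group of genes named eIF1, eIF5 or eIF6, put together by name only, 2 of 8 were higher, 4 lower and 2 did not pass. The autosomal and X-linked eIF1A genes lay on opposite sides. Eif1a read 16.15, 16.13, 15.89, 16.10 and 15.87 in retina against 15.54, 15.46, 15.58, 15.19 and 15.48 in cortex (difference 0.58). Eif1ax read 13.81, 14.02, 14.34, 14.20 and 13.95 against 14.63, 14.66, 14.64, 14.80 and 14.78 (difference -0.63). In neither gene did the tissues overlap, and the direction of both stayed the same on all 4 other scalings, although Eif1a (0.19) did not pass without normalization. Eif5, which triggers GTP hydrolysis by eIF2, differed by -0.52, Eif5a, the hypusine-bearing factor that helps stalled ribosomes, by -0.46 and Eif6, which keeps free large subunits from joining, by -0.21. Eif6 came to -0.052 (limma adjusted p 0.571) with array medians set equal.

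Regulators of initiation were few but spread widely. Of 7 genes, 2 were higher in retina, 4 lower and 1 did not pass. The 4E-binding protein Eif4ebp1 read 11.28, 10.99, 10.60, 11.02 and 10.82 in retina and 12.05, 12.17, 12.00, 11.81 and 11.94 in cortex. The tissues did not overlap, and the difference was -1.05 (SE 0.14, 2.08-fold, limma adjusted p 3.9e-06). It came to -0.99 with array medians set equal, to -0.996 with cyclic loess and to -0.96 without retina replicate 3, all just short of 2-fold, and to -0.58 (limma adjusted p 0.0949) as the mean with its second, dim probe. Eif4ebp2, the form known for its role in neurons, read 10.76, 10.87, 10.77, 10.61 and 10.30 in retina and 11.90, 11.53, 11.52, 11.43 and 11.80 in cortex, a difference of -0.97. Its retina mean (10.66) lay under the dim mark. The kinases of eIF2 lay on both sides. Eif2ak4, the sensor of uncharged tRNA, was higher by 0.57 and Eif2ak3, the sensor of unfolded protein in the endoplasmic reticulum, by 0.47, both with the same sign on every scaling tried but short of the test without normalization (0.18 and 0.08). Eif2ak1, activated when haem is short, differed by -0.51, and Eif2ak2, activated by double-stranded RNA, by -0.34 (limma adjusted p 0.28, retina mean 10.71 and so under the dim mark), which did not pass. Without normalization it read -0.85 and passed.

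Elongation held the widest gap of all members. Eef2k encodes the kinase that phosphorylates eEF2 and slows elongation. Its probe read 9.98, 10.12, 9.75, 10.03 and 10.36 in retina and 13.35, 13.32, 13.40, 13.28 and 13.25 in cortex. Every retina value was under the dim mark of 10.74 and every cortex value was well over it, so the size of the gap rests on a dim retina signal. The difference was -3.27 (SE 0.12, 9.66-fold, limma adjusted p 2.19e-13), and it ranged from -3.12 to -3.73 over the other fits. Its substrate Eef2 differed by 0.10 (limma adjusted p 0.19) and did not pass. Eef2 passed as higher without retina replicate 1 (0.14, limma adjusted p 0.0423) and as lower without normalization (-0.55).

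Of the 10 elongation genes, 2 were higher, 6 lower and 2 did not pass. Eef1b2, a subunit of the exchange factor that reloads eEF1A with GTP, read 16.77, 16.89, 16.75, 16.80 and 16.77 in retina and 18.27, 18.21, 18.31, 18.11 and 18.15 in cortex. The tissues were far apart, with a difference of -1.41 (SE 0.05, 2.67-fold, limma adjusted p 3.11e-13). The other subunits of that factor, Eef1g (-0.21) and Eef1d (-0.22), lay closer to 0. Neither passed with array medians set equal (-0.12 and -0.080) or with cyclic loess (-0.089 and -0.16), and Eef1d lost its call without any of cortex replicates 1, 3 and 5 (-0.21, -0.19 and -0.21) or retina replicates 2, 3 and 5 (-0.22, -0.21 and -0.20). Eef1a2, the form of eEF1A that takes over in adult neurons and muscle, read 16.19, 16.40, 16.46, 16.41 and 16.29 in retina and 15.83, 15.80, 15.89, 15.89 and 15.93 in cortex. It was higher in every retina array, by 0.48 in the mean and by 0.10, short of the test, without normalization. Eef1a1, the widely expressed form, differed by -0.33 (limma adjusted p 0.013), with overlap between the tissues. Its probe ranked from 1 to 11 from the brightest on the 10 arrays, where quantile normalization sets a value by its rank, and the difference was -0.00066 with array medians set equal and 0.23 with cyclic loess. Among the methyltransferases of eEF1A, Eef1aknmt differed by -0.62 and Eef1akmt1 by 0.26 (-0.11 without normalization).

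At the end of translation, Pabpc1, the poly(A) binding protein that bridges the tail to the cap complex, read 13.67, 13.66, 13.84, 13.78 and 13.66 in retina and 14.53, 14.49, 14.64, 14.62 and 14.61 in cortex. The tissues lay apart, with a difference of -0.85 (limma adjusted p 5.59e-10). Etf1, which encodes the release factor eRF1, differed by 0.21, but passed as lower without normalization (-0.17). Gspt1, which encodes its partner eRF3, differed by 0.01 and did not pass. Without normalization Gspt1 passed as lower (-0.38).

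Where a gene family offers alternative forms, the balance between them was tested as the change, from cortex to retina, in the log2 ratio of both probes within each array. Across 11 pairs an exact 2-sided permutation test was used, whose smallest possible p is 0.00794 (0.0125 after Benjamini-Hochberg adjustment over the pairs), and 9 pairs passed. How often pairs of unrelated probes pass was not measured. Singly, 47.6% of all probes and 82.2% of the equally bright ones passed by limma adjusted p. The 9 are therefore not read as particular to these families. Both Eif4a pairs share the Eif4a1 probe. The level of a ratio depends on the probes and is not interpreted. Eef1a2 gained on Eef1a1 by 0.82 (adjusted exact p 0.0125), with ratios from -4.55 to -4.21 in retina and from -5.38 to -4.82 in cortex. That change was 0.63 without normalization and 0.37 with cyclic loess. Eif4a2, the helicase form prominent in adult brain, gained on Eif4a1 by 0.83, from -0.63 to -0.26 in cortex to 0.26 to 0.67 in retina. Eif4a3, the relative that serves in the exon junction complex, gained on Eif4a1 by 1.08. In both pairs the Eif4a1 probe was the one that differed most, since Eif4a2 differed by -0.17 (-0.074 and not past the test with cyclic loess) and Eif4a3 by 0.09. Eif4e3 gained on Eif4e by 1.05, with Eif4e3 itself at 0.34 (limma adjusted p 0.18).

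Among ribosomal protein paralogs, Rpl7l1 gained on Rpl7 by 0.36 and Rpl39l on Rpl39 by 0.42 (adjusted exact permutation p 0.0218), while Rps27l lost against Rps27, with a change of -0.95. Rpl22l1 changed by -0.43 against Rpl22, but by -0.038 (adjusted exact p 0.738) when both Rpl22 probes were averaged. Rpl3l gained 0.91 on Rpl3 (adjusted exact p 0.0291) from a dim probe. Eif5a2, dim in both tissues, changed by 0.79 against Eif5a (adjusted exact p 0.198) and Eif2s3y against Eif2s3x by -0.22 (adjusted exact p 0.157), and neither passed.

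**Figure D4:**
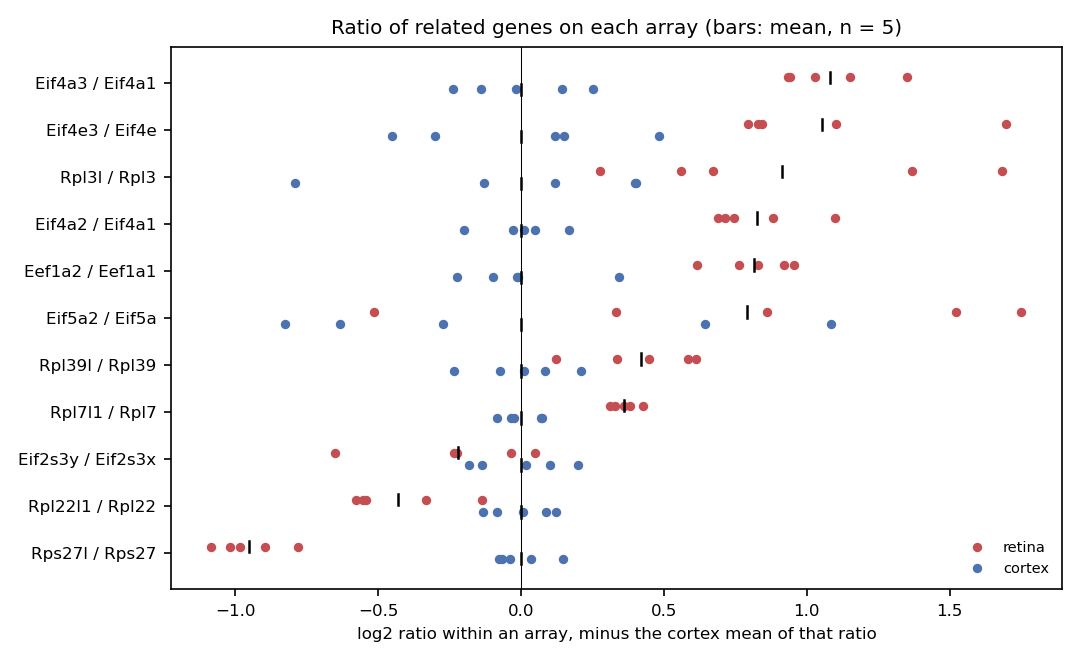
Log2 ratio of paralog to partner within each array, shown for the 11 pairs as the deviation from the mean of the pair's cortex arrays, for 5 retina and 5 cortex arrays. The retina arrays of Eif4a3, Eif4e3, Eif4a2 and Eef1a2 lie above all their cortex arrays, and those of Rps27l lie below.

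For 13 members several probes were present. In 0 of them did probes pass the test in opposite directions, and in 7 all probes had the same outcome. The sizes could still differ widely. Rps24, a small subunit protein, differed by -0.04 on its brightest probe (18.24 in retina, 18.28 in cortex) and by -1.42 on a dimmer one (11.04 and 12.47). Rpl22 gave -0.15 (-0.065 and not past the test with cyclic loess) and -0.93, Rpl21 gave -0.15 and -0.70, and Eef1d gave -0.22 and -1.20. Rpl31 gave -0.33 and -0.27 on its brighter probes and -0.81 on its dimmest. Rps15a went the other way, with -0.53 on the brighter probe and -0.15 on the other. Rpl26 gave -0.0038 and 0.31, and the first of these gave 0.22 with cyclic loess. The count of members that reach 2-fold thus depends on which probe stands for a gene.

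The direction of small differences depended on how arrays were scaled. The deposited cortex arrays were brighter, and the part of this in the sign changes was not tested. Of the 65 members lower in retina, 63 kept their sign on all 4 other scalings, the exceptions being Eef1a1 and Eif2b1 (0.01 with array medians set equal). Of the 20 higher members 7 kept their sign, and 13 turned without normalization, where the median of all probes was itself -0.41 (0.13 with array medians set equal). The ribosomal proteins had a median of -0.76 without normalization, beside -0.71 for the equally bright probes. On that scale 0 members were at least 2-fold higher and 30 lower, and of all probes 2474 were higher and 7621 lower, against 3987 and 4392 after normalization.

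**Figure D5:**
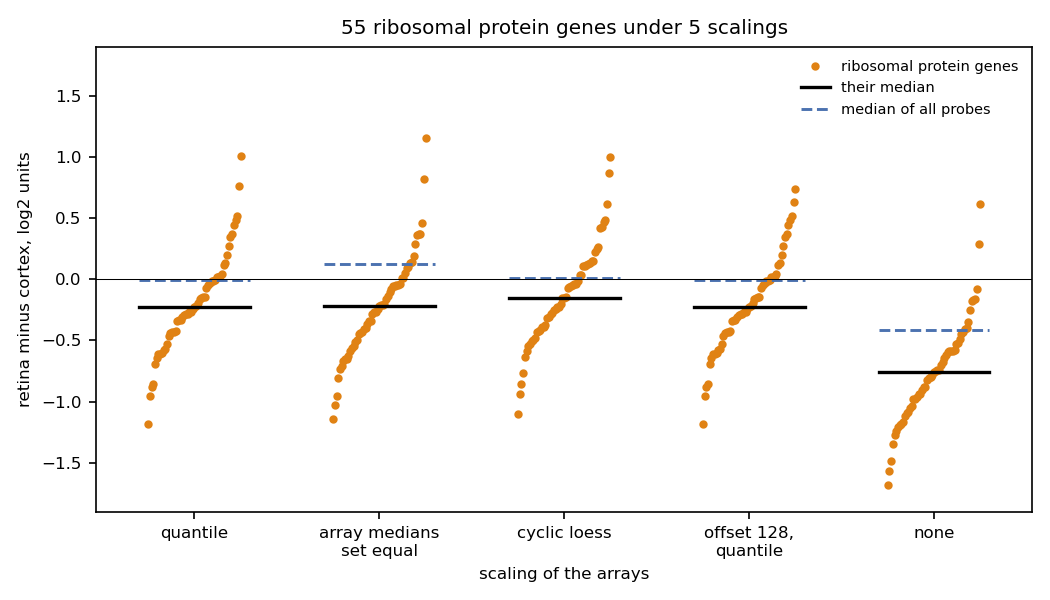
Difference between retina and cortex in mean log2 intensity of each of the 55 ribosomal proteins under 5 scalings, with the median of the 55 and the median of all probes for each. The ribosomal protein median is below that of all probes on each scaling, from -0.15 with cyclic loess to -0.76 without normalization.

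Genes that act beside the ribosome were counted from lists kept apart from the symbol rule. Of 39 ribosome biogenesis genes, 1 was at least 2-fold higher and 7 were lower in retina, beside 12.1% and 13.3% of all probes. By adjusted p alone 8 were higher, 22 lower and 9 did not pass, with a median of -0.27. Of all probes 22.5% were higher and 25.0% lower by that measure. The lower ones were the box H/ACA proteins Nop10 (-1.85) and Nhp2 (-1.30), the box C/D proteins Nop58 (-1.19) and Fbl (-1.13), the large subunit assembly factors Wdr12 (-1.14) and Bop1 (-1.06), and Npm1 (-1.06), the nucleolar chaperone. Rrp1b (1.16) was the higher one. Of 17 cytosolic tRNA synthetases none reached 2-fold with the test, and by adjusted p alone 3 were higher, 9 lower and 5 did not pass (median -0.18).

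Of 17 other translation factors, 2 were at least 2-fold higher and 2 lower, a share close to that of all probes, and by adjusted p alone 5 were higher, 6 lower and 6 did not pass. The cytoplasmic polyadenylation element binding proteins Cpeb1 (1.61, dim in cortex) and Cpeb3 (1.28), which control translation of stored messengers, were higher, and the poly(A) binding protein Pabpc4 (-1.66) and the ribosome recycling factor Abce1 (-1.21) were lower. Of 11 genes of the mTOR pathway, which controls the 4E-binding proteins and messengers with a pyrimidine tract, 4 were at least 2-fold higher and 1 lower. The shares of all probes were 12.1% and 13.3%. By adjusted p alone 5 were higher, 3 lower and 3 did not pass, beside 22.5% higher and 25.0% lower of all probes. The higher ones were the mTOR inhibitors Deptor (2.40), Ddit4 (1.61) and Sesn2 (1.01) and the mTORC2 subunit Rictor (1.07), with Sesn2 and Rictor under the dim mark in cortex. Tsc1, an inhibitor upstream of mTOR, was lower (-1.05) on a probe dim in both tissues. By adjusted p alone the mTOR inhibitor Akt1s1 (-0.996) and Mtor itself (-0.96, dim in both) were also lower, so inhibitors lay on both sides. These lists were not tested as sets. Beside their counts, the dividing cell markers given above were lower in retina, and their part in these values was not tested.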

How the data were processed

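The series table deposited by the authors holds 1 linear intensity per probe and array (33012 probes, 10 arrays). Per the labels' protocols, total RNA extracted with TRIzol was transcribed into digoxigenin-labelled cRNA and detected by chemiluminescence. How the deposited intensity values were background corrected or scaled, and with which software, is not given in the sources used here. Retina array titles also carry "P1", which no source explains.

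Intensities were put on the log2 scale and then quantile normalized. They were fitted with limma 3.58.1 (R 4.3.3, lmFit, eBayes with an intensity trend) on all 10 arrays, with Benjamini-Hochberg adjustment over all probes. A call needed an adjusted p under 0.05 and at least a 2-fold difference, and counts by adjusted p alone are given beside it. The fit was tested on simulated data. The platform annotation, which can be old, gave 14411 probes a single symbol and 247 several, and did not list 18354; 1 probe with several symbols that include a member's name was not used. Members and lists were chosen with earlier results of these data known. Up to 4 called members per list and direction, both genes of each pair and a set of regulators and factors were named by rule (38 genes). The rest of the 83 named members and the genes named from the other lists were chosen after their values were seen. Equally bright probes are those above the 10th percentile of the mean of ribosomal protein probes. Alternatives were other scalings, an offset, treat, probe averaging, filters on dim probes, leaving out each array and a replicate block. Protein sequences were not used here.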

Additional observations from a re-analysis of the deposited data

Results flagged for a closer look

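Across the 83 named members and both tissues, 166 groups of 5 arrays were checked for 1 array standing far from the other 4, and 6 did so by Dixon's criterion, which chance meets in about 1 in 20 groups. Cortex replicate 1 was the lowest for Eef1a1 (20.65, the others from 21.06 to 21.19) and the highest for Eif4e (16.27, the others from 16.09 to 16.14). Retina replicate 2 was the lowest for Rpl3 (18.31, the others from 18.69 to 18.81) and for Eif4g2 (14.10, the others from 14.39 to 14.49). Retina replicate 5 was the lowest for Rpl22 (17.48, the others from 17.59 to 17.62) and for Etf1 (14.76, the others from 14.89 to 14.91). Without its array, each of these differences kept its direction.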

How the results depend on the processing

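The count of 5 members at least 2-fold lower in retina was 30 without normalization and 16 when tested against 1.5-fold (treat), and ranged from 5 to 8 when single arrays were left out (8 without cortex replicate 4). The count of 1 higher was 2 with array medians set equal and with cyclic loess, 0 without normalization, with an offset added before log2, with treat and without dim probes, and 0 to 1 when single arrays were left out. By adjusted p alone the higher count was 0 without normalization. The median of the ribosomal proteins was -0.15 with cyclic loess and -0.76 without normalization, and that of the initiation factors -0.054 with array medians set equal, -0.082 with cyclic loess and -0.59 without normalization. The pair Rpl22l1 against Rpl22 changed by -0.038 with probes averaged, and Rpl3l against Rpl3 by 0.71 to 1.07 when single arrays were left out, with an adjusted exact p of 0.0582 in 7 of 10 such cases. Eef1a1 turned to 0.23 and Rpl26 to 0.22 with cyclic loess, and Eif2b1 to 0.013 with array medians set equal. Without normalization the following turned sign: Eef1akmt1 -0.11, Eef2 -0.55, Eif2b2 -0.15, Eif2b4 -0.11, Eif2b5 -0.30, Eif3f -0.33, Eif3h -0.49, Eif4a3 -0.43, Eif4b -0.11, Eif4h -0.21, Etf1 -0.17, Gspt1 -0.38, Rpl10a -0.17, Rpl3 -0.59, Rpl7 -0.53, Rpl9 -0.078, Rps14 -0.25, Rps15 -0.16, Rps27 -0.43, Rps29 -0.18 and Rps6 -0.35. Of these, all passed the test there as lower except Eef1akmt1, Eif2b2, Eif2b4, Eif4b, Rpl10a, Rpl9, Rps15 and Rps29. Beyond the shift of all probes given above, the cause was not tested. With the replicate number as a block, 1 member was called higher and 5 lower, and 21 and 64 by adjusted p alone. Same-numbered arrays did not deviate together (correlations from -0.02 to 0.03), so the arrays share only a number. For pairs, a paired sign-flip test cannot go below 0.0625 and was not run. No detection calls were used, so dim signal limits Rpsa, Rpl3l, Rpl37 and Eif5a2 in both tissues and Eef2k, Eif4ebp2 and Eif2ak2 in retina.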
